A study of Mus musculus with 12 samples.

Results

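The 228 CpGs described here carried different methylation levels on their plus and minus strands in nearly every animal. They were chosen by their measured levels. An autosomal CpG entered the set when both of its cytosines had at least 10 reads in all 12 animals, when the mean over the animals of the plus-strand level minus the minus-strand level was at least 15 percentage points in size, and when at least 10 animals shared the sign of that mean. Of 325167 autosomal CpGs read on both strands in all animals, 228 (0.0701%) met these conditions. The size and direction of their strand difference are therefore what chose them, and are given as a description with no test.

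Reduced representation bisulfite sequencing (RRBS) was applied to brain tissue that mixed dorsal hippocampus and cortex. The 12 mice came from the Taconic Tg2576 stock and were labelled as 11 months old, and no treatment was named. Wild-type (Wt) animals were 3 labelled female and 1 labelled male, and Tg2576 (Tg) animals were 4 labelled female and 4 labelled male. Tg animals carry a transgene in which the prion promoter drives a human APP that carries a mutation of inherited Alzheimer's disease, and Wt animals lack it. Replicate numbers merely tell animals of a group apart.

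A CpG reads the same on both strands, and after DNA replication the maintenance methyltransferase DNMT1, guided by UHRF1, copies the methyl mark of the old strand onto the new one. In adult tissue most methylated CpGs therefore carry the mark on both strands. A CpG with the mark on one strand is called hemimethylated, and TET enzymes and base excision repair can also leave one strand without it. Bisulfite sequencing does not tell 5-methylcytosine from 5-hydroxymethylcytosine, a mark that is abundant in neurons. RRBS reads the ends of fragments cut by MspI at CCGG, between the first and second base. At a CCGG itself, the plus strand is thus read from the fragment to its right and the minus strand from the fragment to its left, and the fragment ends are filled in with new bases during library preparation.

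The sequences around 12 of these CpGs are shown because the results below turn on them. Each is the plus strand of GRCm38 (mm10) from the RefSeq genome, 30 bases long, with the CpG in capitals, or the whole CCGG where the CpG lies in one.
Gm40662 intron, chr13:7055742-7055771: caaggtggctcccgCGggagcctgaggcag
Tmem267 untranslated exon, chr13:119609688-119609717: atgctcagtgcctaCGcctctctctacatg
Cdk8 intron, chr5:146261132-146261161: aatgcagcccaaagCGggtggtaaactcca
Intergenic, nearest to Gm25352, left CpG, chr3:5860654-5860683: aggcccccggcgcCCGGctccgtcctcgcg
Intergenic, nearest to Gm25352, right CpG, chr3:5860687-5860716: gggtcggggcacgCCGGcctcgcgggccgc
Inside Zc3h7a and in the promoter of Gm23935, chr16:11144107-11144136: gggtctccccccgCCGGgcgtcgggaccgg
Gm26917, ribosomal RNA stretch, chr17:39844752-39844781: tcgcgtgccctgaCCGGtccgacgcccgag
Eid2 promoter, chr7:28267752-28267781: cgccagcaaatgcCCGGaggacacgcgtgc
Cyld promoter, chr8:88697295-88697324: cccgttagctgccCCGGgccgacgagcttc
Sox2 exon, chr3:34651106-34651135: cagcagggcacccCCGGtatggcgctgggc
3110070M22Rik and Tmem267 promoter, chr13:119488352-119488381: cgtccgcggggacCCGGaggactcggccgc
Syt7 coding exon, chr19:10426546-10426575: cagggcacctcggCCGGctccaagtaccgg

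The coverage summed over the listed cytosines, where a read counts once for each cytosine it covers, was 33619981 to 131446104 per library, and each listed cytosine had at least 10 reads. In the library labelled Wt male, the mean level of the X sites (47.2%) and the number of Y sites per 1000 autosomal sites (0.0696) lay within the ranges of the libraries labelled female (38.7% to 49.7% and 0.0584 to 0.151), and outside those of the Tg males (17.1% to 30.5% and 0.347 to 0.503). It was kept under its label, and the results that rest on it are given without it as well. Leaving it out gave 291 asymmetric CpGs with 11 animals, of which 218 were among the 228. The asymmetric CpGs had a median of 40 reads per strand and animal, close to the 48 over all CpGs. Only 36 of the 228 had at least 20 reads on both strands in every animal, against 67144 of all 325167 CpGs. At the other 192, the level of at least 1 strand and animal rests on fewer than 20 reads.

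The plus strand was higher at 120 of the 228 CpGs (52.6%) and the minus strand at 108. The size of the mean difference ran from 15.01 to 90.3 points, with a median of 19.9, against a median of 0.629 over all CpGs and 3.68 over the 14334 partly methylated CpGs, those with a mean level between 10% and 90%. Differences of 50 points or more were found at 23 CpGs. The higher strand had a median level of 50.1% and the lower strand one of 22.4%. All 12 animals shared the sign at 84 CpGs, 11 at 59 and 10 at 85. A further 112 CpGs reached 15 points but had fewer than 10 animals of 1 sign.

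**Figure D1:**
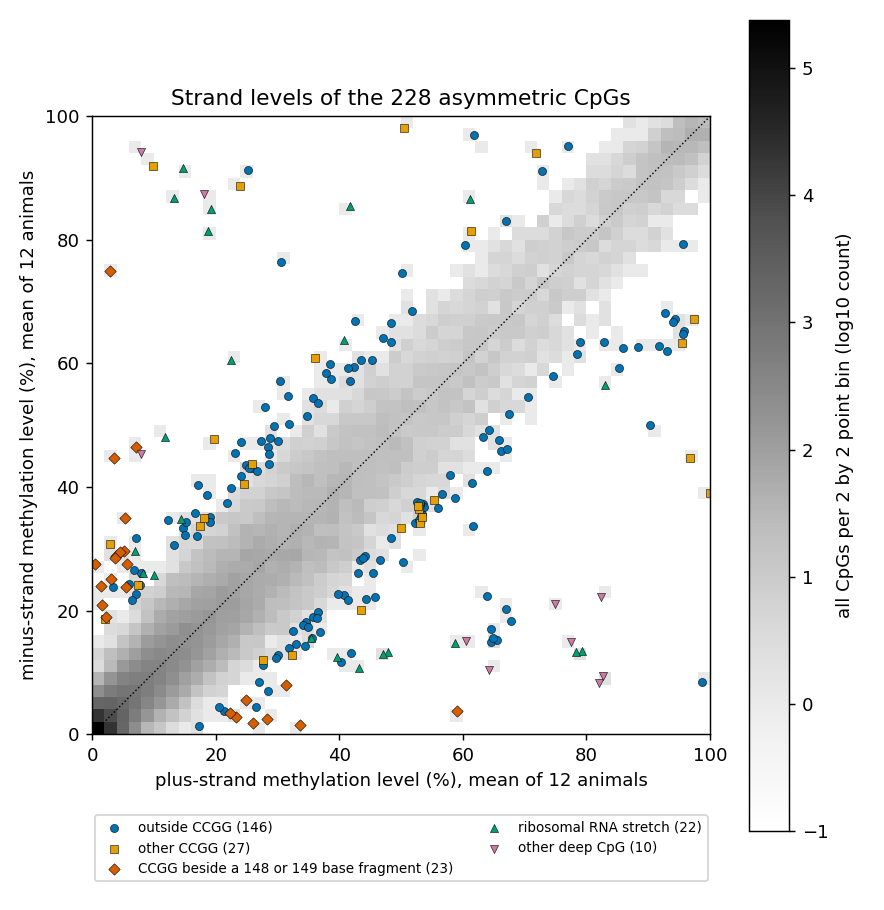
Plus-strand level (x axis, %) against minus-strand level (y axis, %) of the 228 asymmetric CpGs, each the mean of 12 animals, coloured by kind, over a grey map of all 325167 CpGs (log10 count per bin). The median distance between the strands was largest at the other deep CpGs (61.3 points), followed by the ribosomal RNA stretch (34.5 points), and the CCGG CpGs beside fragments of 148 or 149 bases lie along the axes, near 0% on one strand.

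At the 2 CpGs just inside the limit, near Gm49313 (chr15:38259627) and in an intron of Adamtsl2 (chr2:27088484), the mean differences were 15.01 and -15.1 points. At the 2 just outside it, in Gm26917 (chr17:39844742) and in a coding exon of Polr1d (chr5:147078755), they were 14.96 and -14.9 points. The spread over animals differed more than the means did, with SDs of 22.1, 16.7, 3.64 and 19.8 points (n = 12). Over all asymmetric CpGs the median SD over animals was 16.3 points, against 16.9 over the partly methylated CpGs.

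Whether the direction held in an animal that had not been used was asked by leaving out each animal in turn, choosing the CpGs in the other 11 (15 points, at least 9 animals of 1 sign), and reading the animal left out. The choice gave 260 to 291 CpGs. The animal left out had the same direction at 65.6% to 77.3% of them, with a median of 72.1%. Over all partly methylated CpGs, each taken in the direction of the other 11 animals, the share was 47.9% to 52.9%. The mean difference in the direction chosen was 14.2 to 19.1 points in the animal left out, against 24.8 to 25.7 points in the 11 that chose the CpGs. The differences at the chosen CpGs were thus smaller in the unused animal, and 43.9% to 55.4% of them reached 15 points there.

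The 228 CpGs were then sorted into 5 kinds, by sequence, coverage and annotation, after their values had been seen. The kinds are CpGs in a stretch of ribosomal RNA on chromosome 17 (22), other CpGs with a median coverage over 500 reads on a strand (10), CpGs of a CCGG beside an MspI fragment of 148 or 149 bases (23), other CpGs inside a CCGG (27), and CpGs outside a CCGG (146). The kinds behaved differently in the animal left out. In the ribosomal stretch and at the other deep CpGs, 100% of the chosen CpGs kept their direction in every animal left out, with median mean differences of 40.4 and 61.5 points. Beside the 148 or 149 base fragments the median share was 100% (range 75% to 100%) with 29.0 points. The animal left out had helped to pick these lengths, so that this share is partly fixed in advance and cannot be ranked against the other kinds. At other CCGG CpGs it was 75.4% (63.9% to 82.8%) with 19.1 points. Outside CCGG it was 63.4% (58.9% to 69.9%) with 9.54 points. Leaving aside the 148 or 149 base class, this share was the lowest, though CpGs outside CCGG make up most of the set.

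**Figure D2:**
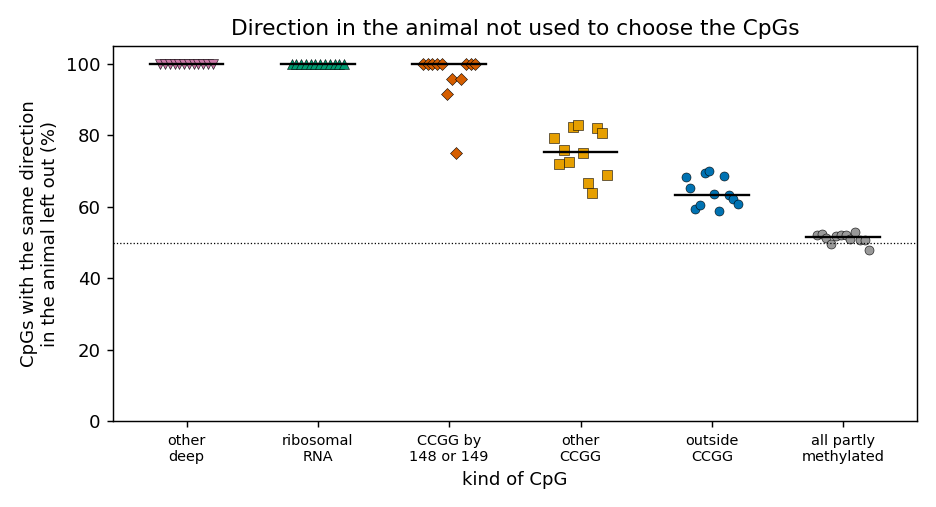
Share of CpGs (y axis, %) with the same direction in an animal that was not used to choose them, by kind of CpG (x axis), with 1 point for each of the 12 animals left out and a bar at the median. The deep and ribosomal CpGs are at 100%, the CpGs outside CCGG between 58.9% and 69.9%, and all partly methylated CpGs between 47.9% and 52.9%.

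CpGs inside a CCGG made up 72 of the 228 (31.6%), against 26999 of 325167 (8.30%) of all CpGs and 9.15% of the partly methylated ones. Put the other way, 0.267% of the CpGs in a CCGG were asymmetric and 0.0523% of those outside. That both strands of a CCGG come from different fragments could be read from the coverage. Over 16727 CCGG CpGs with measured CpGs inside both neighbouring fragments, the plus-strand coverage followed that inside the right fragment (Spearman rho 0.994) and not that inside the left one (rho 0.128), as a description across CpGs that share libraries. At 11 asymmetric CCGG CpGs outside the 148 or 149 base class with such neighbours on both sides, the plus-strand level lay a median of 4.20 points from the plus-strand level inside the right fragment and 34.3 points from that inside the left. The minus-strand level lay 1.55 points from the left fragment and 30.8 points from the right. By these medians, each strand lay closer to the level of the fragment it was read from. CpG by CpG, the sign of right minus left interior level equalled that of the strand difference at 9 of the 11.

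The CpGs of a CCGG beside a fragment of 148 or 149 bases, counted from cut to cut, stood apart. There were 39 of them among the CpGs read on both strands, and 23 (59.0%) were asymmetric, against 49 of the other 26960 CCGG CpGs (0.182%). At all 23, the higher strand was the one read from the fragment on the other side. With the 148 or 149 base fragment on the left, 8 CpGs were asymmetric and 8 were plus-higher. With it on the right, 15 were asymmetric and 0 were plus-higher. The higher strand had a median level of 28.3% (18.9% to 74.9%) and the lower strand one of 3.503% (0.379% to 7.93%). The mean difference in that direction was 19.7 points over the 22 measured ends of 148 bases and 18.96 points over the 17 of 149 bases. At 147 bases it was -0.0927 points (81 ends), at 150 bases -3.11 points (14 ends) and at 151 bases 3.76 points (18 ends). Among the 137 lengths with at least 10 ends, only 22 bases also departed from 0 by more than 4 points, with -14.04 points over 11 ends. The number of ends fell from 81 at 147 bases to 22 at 148. These lengths were noticed in the data and then counted on the same data.

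**Figure D3:**
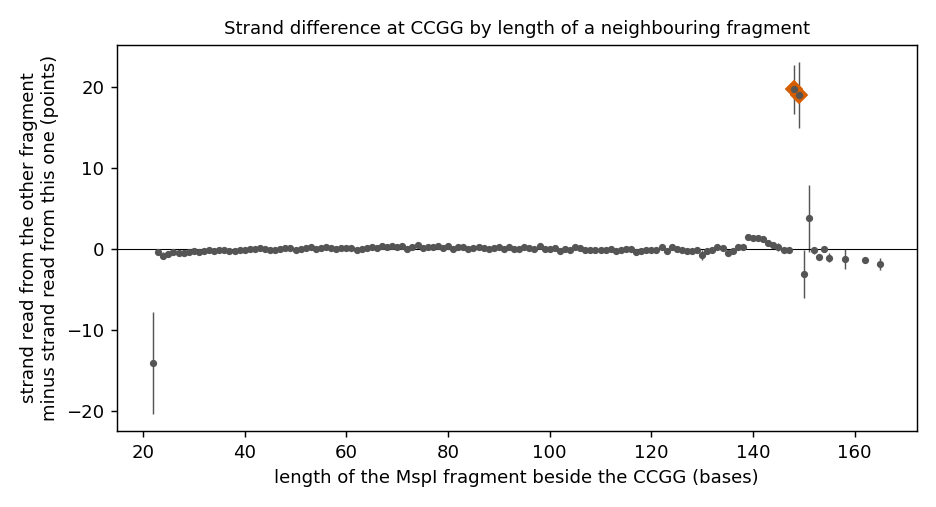
Mean strand difference at CCGG CpGs (y axis, percentage points, strand read from the other fragment minus strand read from this one, bars show the standard error over CpGs) against the length of the neighbouring MspI fragment (x axis, bases), for lengths with at least 10 ends. Lengths of 148 and 149 bases (diamonds) lie at 19.7 and 18.96 points, 22 bases lies at -14.04, and the other lengths lie within 4 points of 0.

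Of these 23 CpGs, 21 lay in promoters, here the 1000 bp before or after a start of transcription, and the genes were of many functions. In the promoter of Eid2, which encodes an inhibitor of differentiation, both ends of a fragment of 149 bases were asymmetric in opposite directions. At its left end (chr7:28267766) the difference was -67.7, -100, -79.5 and -83.3 points in Wt females 1 to 3 and the library labelled Wt male, and -93.3, -69.3 and -36.6 points (lowest, median, highest) in the 8 Tg animals. All 12 values were negative and the groups overlapped. At its right end (chr7:28267915) the plus strand was at 23.3% and the minus strand at 2.81%. In the promoter of Cyld, a deubiquitinase that restrains NF-kappaB signalling, the fragment lay on the left (chr8:88697309). The difference there was 47.4, 81.2, 50 and 45.5 points in the same order of Wt animals, and 33.7, 54.5 and 75.9 points in Tg. Wt female 2 was the highest of the 4 Wt animals, and every animal was above 0. In the exon of Sox2, a transcription factor of neural stem cells (chr3:34651120), it was 50, 22.2, 35.4 and 12.02 points in Wt and 13.2, 34.6 and 48.2 points in Tg, with a plus-strand level of 33.7% and a minus-strand level of 1.41%. The promoter of Wnt10b, a Wnt ligand (chr15:98776698), had 31.4% on the plus and 7.93% on the minus strand, that of Dxo, a nuclease that removes faulty RNA caps (chr17:34837320), 3.503% and 44.7%, and that of Rnf4, a SUMO-targeted ubiquitin ligase (chr5:34336988), 3.88% and 28.8%.

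The reads at these CpGs had a further measured property. At 20 of the 23, other CpGs were measured inside the fragment from which the higher strand was read. There the median level was 0.893%. The higher strand had a median of 59.2 reads at the CCGG, against 45.2 reads on the same strand inside that fragment, and the excess had a median of 15.5 reads and was above 0 at 19 of 20. The methylated reads at the CCGG numbered a median of 14.2. At 20950 other CCGG CpGs that were not deep, the median excess was 0 reads. The part of these additional reads in the strand difference was not tested.

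Among the remaining 49 asymmetric CCGG CpGs, the higher strand was read from the shorter of its neighbouring fragments at 38, with median lengths of 26 bases for the higher strand and 73 for the lower. Of the 49, 21 were deep, with a median of 56 reads on the higher strand and 3442 on the lower, and the higher strand was the shallower one at all 21. Their levels had medians of 79.2% on the thin strand and 13.3% on the deep one. At the 28 that were not deep, coverage was alike (36.5 and 36 reads), the levels were 53.0% and 29.6%, and the higher strand came from the shorter fragment at 19.

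Deep CpGs, with a median of over 500 reads on at least 1 strand, numbered 481 in all, and 28 of them (5.82%) were asymmetric, against 0.0616% of the others. Across the 228, a coverage ratio over 4 between the strands occurred at 24 CpGs (10.5%), against 0.607% of partly methylated CpGs, and the deeper strand was the lower one at all 24. At the other 204, the deeper strand was the lower one at 97. The stretch of ribosomal RNA spans chr17:39843013-39848827, where the annotation has the long non-coding RNAs Gm26917, Gm42418 and AY036118 and the ribosomal RNA gene CT010467.1. It held 422 measured CpGs with a median of 2786 reads per strand and animal, a mean level of 15.6% and 22 asymmetric CpGs (5.21%), of which 14 lay in a CCGG. Ribosomal RNA genes occur in many copies, whose reads cannot be told apart here.

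In Gm26917 the CpG at chr17:39844766 had a difference of -71.5, -79.4, -81.9 and -74.9 points in Wt females 1 to 3 and the library labelled Wt male, and -82.2, -76.0 and -71.9 points (lowest, median, highest) in Tg. Its plus strand stood at 14.8% over a median of 4973.5 reads and its minus strand at 91.5% over 292 reads, and all animals lay within a range of about the same width in both groups. At chr17:39845330, also in Gm26917, the direction was the opposite, with 78.9, 81.0, 71.4 and 69.2 points in Wt and 44.5, 64.5 and 74.2 points in Tg. In CT010467.1 the CpG at chr17:39846638 had -60.8, -45.0, -74.5 and -86.2 points in Wt and -90.5, -79.2 and -60.5 points in Tg, and that at chr17:39847627 had 56.5, 80.7, 66.6 and 68.3 points in Wt and 48.6, 63.7 and 91.2 points in Tg. In each of these 4 CpGs the groups overlapped. A CpG outside a CCGG, at chr17:39844755, had -39.4, -45.6, -45.7 and -29.6 points in Wt and -54.9, -44.8 and -37.5 points in Tg.

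Other deep CpGs showed the same arrangement of coverage and level. Near Gm25352, a microRNA gene, 2 CCGG CpGs that end one fragment of 33 bases were asymmetric in opposite directions. The left one (chr3:5860668) had 7.96% on the plus strand over 3171 reads and 94.1% on the minus strand over 164.5 reads. Its difference was -92.0, -83.8, -86.9 and -86.9 points in Wt and -91.8, -87.4 and -72.3 points in Tg. The right one (chr3:5860701) had 82.0% on the plus strand over 99 reads and 8.20% on the minus strand over 3148 reads, and its difference was 61.0, 89.3, 86.2 and 82.9 points in Wt and 54.7, 71.05 and 86.0 points in Tg. The strands read from inside the 33 bases were thus the low ones, and the groups overlapped at both. Inside Zc3h7a, a zinc finger protein of the microRNA pathway, and in the promoter of Gm23935, the CpG at chr16:11144121 had 58.2, 79.4, 76.7 and 82.0 points in Wt and 57.6, 69.6 and 90.03 points in Tg, and its 31-base window occurs 3 times in the genome. The CpG near the pseudogene Gm11668 (chr11:109011776) had -76.9, -42.3, -63.5 and -64.2 points in Wt and -83.3, -75.2 and -61.2 points in Tg.

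In an intron of Cdk8, the kinase of the Mediator complex, 10 of 10 measured CpGs within 173 bases were asymmetric and plus-higher, with mean levels of 67.5% on the plus and 16.99% on the minus strand. The first 3 of them had medians of 6460.5 to 6490.5 reads on the minus strand. The leading CpG (chr5:146261146) had 46.9, 62.8, 69.5 and 42.2 points in Wt and 41.0, 67.5 and 84.5 points in Tg, with overlapping groups. The window of 4 of the 10 occurs more than once in the genome, as is or after in silico conversion. Near Gm49381, 5 of 5 measured CpGs within 27 bases (chr12:20072035-20072061) were plus-higher, with 32.4% against 9.66%, and all 5 windows were repeated.

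**Figure D4:**
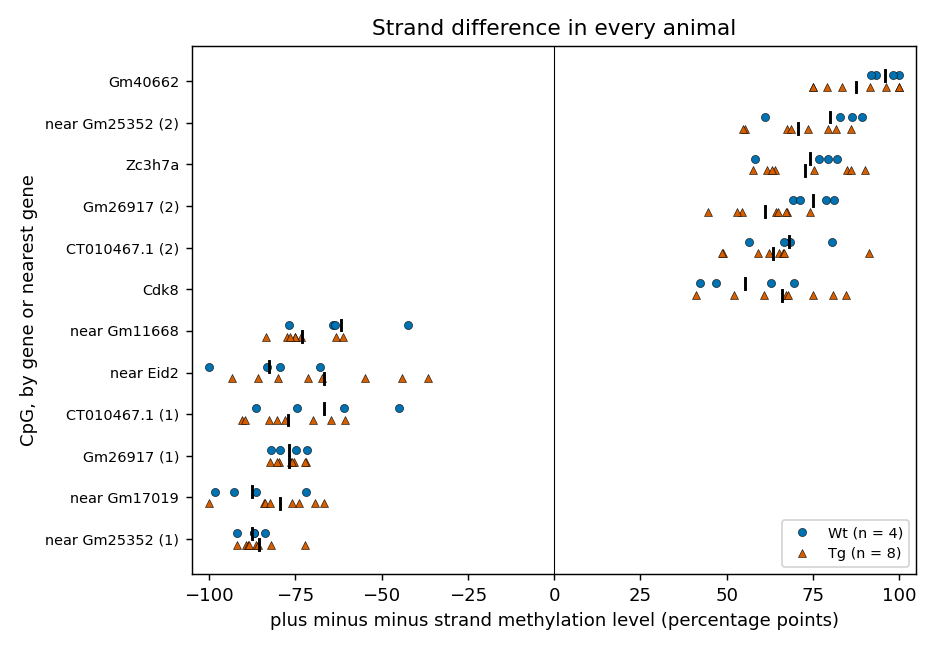
Plus-strand minus minus-strand level (x axis, percentage points) in each of 4 Wt and 8 Tg animals at the 6 plus-higher and 6 minus-higher CpGs with the largest means (y axis, named by gene or nearest gene, 1 CpG in any 1000 bp), with bars at the group means. Every animal lies on the same side of 0 at all 12 CpGs, and Wt and Tg animals overlap at each.

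Outside the deep loci and the CCGG, the largest difference of all was in a repeat-masked intron of the long non-coding RNA Gm40662 (chr13:7055756). It was 100, 98.3, 91.8 and 93.3 points in Wt females 1 to 3 and the library labelled Wt male, and 74.9, 87.4 and 100 points (lowest, median, highest) in Tg. The plus strand was at 98.7% over a median of 24 reads and the minus strand at 8.40% over 40 reads, and after in silico conversion the minus-strand window occurs 2 times in the genome. In the other direction, a CpG in an untranslated exon of Tmem267, a transmembrane protein gene (chr13:119609702), had -72.5, -87.1, -56.5 and -90.6 points in Wt and -90.5, -61.8 and -43.4 points in Tg, with the plus strand at 25.2% and the minus strand at 91.4%. A CpG 25 bases on (chr13:119609727) was minus-higher as well, with 30.6% and 76.4%. In a repeat far from genes, nearest to Gm17019 (chr5:15011701), a CCGG CpG of ordinary depth had -72.0, -92.9, -98.3 and -86.4 points in Wt and -100, -79.1 and -66.7 points in Tg. Another CCGG CpG lay in a coding exon of Syt7, a calcium sensor of vesicle release (chr19:10426560). Its plus strand was at 100% over a median of 18 reads and its minus strand at 39.0% over 29 reads. The differences were 45.5, 60.7, 66.7 and 50 points in Wt and 40, 66.7 and 81.8 points in Tg. In an exon of Ccdc177, a coiled-coil protein gene (chr12:80759026), the minus strand was the higher one, at 52.9% against 27.9%. The difference there was -33.1, -29.2, -24.3 and -46.7 points in Wt and -63.6, -19.5 and 20 points in Tg, so that the Tg animals reached past 0 and enclosed the Wt range.

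The 228 CpGs formed 168 runs, in which neighbours lie within 1000 bp. Of these, 144 were single CpGs and 19 were pairs, of which 13 had both members in 1 direction. The longest were the ribosomal stretch (17 CpGs), the start of 3110070M22Rik and Tmem267 (11), and Cdk8 (10). The start of 3110070M22Rik and Tmem267, which lie on opposite strands, had 11 asymmetric CpGs among 30 measured within 153 bases, 10 of them plus-higher, and 0 with a repeated window. The level changed from fragment to fragment. Inside a fragment of 22 bases, both strands were at 94.6% to 98.4%. At the CCGG on its left (chr13:119488366), the plus strand, read from that fragment, was at 97.4% and the minus strand, read from the fragment to its left, at 67.2%. At the CCGG on its right (chr13:119488388), the plus strand was at 50.4% and the minus strand at 98.1%. Inside the fragment of 74 bases that follows, 17 CpGs were at 22.01% to 51.01% on both strands and none met the limit, as at chr13:119488391 with 49.9% and 46.8%. Beyond it, from chr13:119488472, the strands differed inside the fragments too, with 93.1% on the plus and 62.0% on the minus strand. The leading CpG (chr13:119488462) had 27.4, 49.5, 67.6 and 45.8 points in Wt and 37.2, 55.8 and 69.1 points in Tg, and that at chr13:119488366 had 20.9, 40.9, 44.8 and 50.8 points in Wt and 9.76, 22.1 and 41.6 points in Tg. Both had all 12 animals above 0, with overlapping groups.

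**Figure D5:**
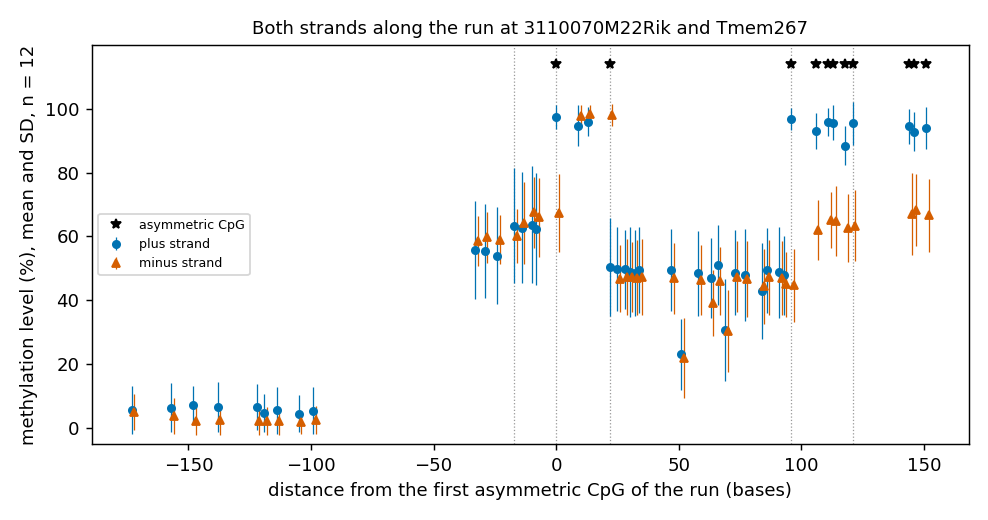
Methylation level (y axis, %, mean and SD over 12 animals) of the plus strand (circles) and minus strand (triangles) at each measured CpG along the start of 3110070M22Rik and Tmem267, by distance from the first asymmetric CpG (x axis, bases). Dotted lines mark CCGG sites and stars the asymmetric CpGs. Both strands are near 97% inside the fragment of 22 bases. Inside that of 74 bases, both strands are near 50% at most CpGs, with the lowest level at 22.01%. The strands are apart beyond the fragment of 74 bases.

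By genomic context, 84 of the 228 (36.8%) lay in promoters, 63 (27.6%) in introns, 37 (16.2%) in coding exons, 37 (16.2%) between genes and 7 (3.07%) in untranslated exons. All CpGs were mostly in promoters (85.5%), whereas the partly methylated ones had 30.2%, 26.4%, 20.7%, 18.4% and 3.43% in these 5 contexts. All but 1 of the asymmetric CpGs were partly methylated, so that the second set is the nearer comparison. The ribosomal stretch held 22 and the 148 or 149 base class 21 of the 84 promoter CpGs, and 32 of the 146 CpGs outside CCGG lay in promoters. In genes of 1 orientation, the higher strand was the sense strand at 97 of 165 (58.8%), and at 89 of 146 (61.0%) without the ribosomal stretch, against 51.3% of 9826 partly methylated CpGs. These counts take CpGs of a run singly, though such neighbours share reads. In the plus-strand gene Cdk8, 10 of 10 were plus-higher. The run at the start of Tmem267, also a plus-strand gene, had 10 of 11, in part where 3110070M22Rik overlaps it. The share without these runs was not taken. Soft-masked repeats held 11 (4.82%), against 1.92% of the partly methylated CpGs, and 14 (6.14%) had a 31-base window that occurs more than once in the genome, against 1.97%. After in silico conversion, in which the strands differ, 30 windows (13.2%) were repeated, against 3.93%.

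In the 300 bases around the CpG, on either strand, 16 (7.02%) had the core of the CTCF motif, against 16.4% of all and 11.4% of partly methylated CpGs. An E-box (CACGTG) was found at 11 (4.82%, against 7.14% and 6.98%), a cAMP response element core (TGACG) at 44 (19.3%, against 25.3% and 18.5%) and an SP1 box (GGGCGG) at 95 (41.7%, against 68.1% and 31.7%). An MspI site (CCGG), without which RRBS reads no CpG, was found at 227. Read along the higher strand, the 148 asymmetric CpGs outside CCGG and the ribosomal stretch had C as the base after the CpG at 48.0% and C at the next base at 40.5%, against 40.05% and 30.6% at partly methylated CpGs read in both directions. The base 3 before the CpG was A at 31.8%, against 19.9%. Of 45 with CGCC on one strand only, 29 were higher on that strand (64.4%), against 54.8% of 3287 partly methylated CpGs, where the mean difference was 0.728 points. CGCC is the CpG with C at both following bases, counted in the same CpGs and directions. The count thus restates the shares of C above and is not a separate result. Neighbouring CpGs shared the direction of the asymmetric ones more often than not. Of 212 partly methylated neighbours within 50 bases and in the same fragment that were not in the set themselves, 176 (83.0%) had the same sign, with a median of 7.64 points in that direction. Neighbours of other partly methylated CpGs had the same sign in 68.1%, with 2.0005 points. Such neighbours share reads.

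Genes that write, read or remove DNA methylation were counted next. The 11 measured genes of the writers and readers had 468 CpGs in their bodies and promoters and 0 asymmetric ones, and CTCF and the cohesin genes had 366 CpGs and 0. At the 0.0701% over all CpGs, lists of this size would hold few or none. Genes of erasure and base excision repair had 223 CpGs and 1 asymmetric one (0.448%, against 0.0701% over all CpGs), in a coding exon of Smug1, a uracil DNA glycosylase (chr15:103156017). Its difference was 5.56, 17.6, 27.2 and 7.14 points in Wt and -6.09, 15.9 and 53.7 points in Tg, so that 10 of 12 animals were above 0, over a median of 13.5 reads on the minus strand. Nearly all asymmetric CpGs were partly methylated, and 1.58% of all partly methylated CpGs were asymmetric. The share over all CpGs is thus a low mark for a list rich in partly methylated CpGs. Imprinted genes, with 225 of 563 CpGs partly methylated, had 2 asymmetric ones (0.355% of the 563). One was in the promoter of Plagl1, an imprinted zinc finger transcription factor (chr10:13090980), with 15.4, 0.245, 28.4 and 20 points in Wt and -9.06, 25.8 and 42.8 points in Tg. The other was in an intron of Kcnq1, a potassium channel gene of an imprinted cluster (chr7:143325179), with -47.9, -16.8, -38.8 and -11.3 points in Wt and -37.9, -14.3 and 11.5 points in Tg.

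Among cell type markers, neuron genes had 494 CpGs and 1 asymmetric one (0.202%, against 0.0701% over all CpGs), in an intron of Rbfox3, which encodes the neuronal protein NeuN (chr11:118825375). It had -3.84, -42.5, -29.4 and -0.571 points in Wt and -52.8, -16.6 and 23.6 points in Tg. The lists of oligodendrocyte (205 CpGs), astrocyte (306), microglia (109) and endothelial (127) markers had 0 asymmetric CpGs, and at 0.0701% lists of this size would hold few or none. The promoters of all of these marker lists had mean levels of 0.801% to 1.96%. The counts take gene bodies as well, and only 20 of the 109 microglia CpGs lay in promoters. The part of the level in these counts was not tested.

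Whether the strand difference depended on genotype was asked at every CpG with a fit that adjusted for sex. The rule used the mean over all animals and no contrast between Wt and Tg. Its condition that at least 10 animals share a sign still leaves out CpGs at which all Wt animals oppose the Tg animals. This limits the genotype difference that a member can show. With limma, 0 of 307280 CpGs (0%) differed between Tg and Wt at an adjusted p under 0.1 and 10 points, and 0 of the 228. At an unadjusted p under 0.05 there were 10668 (3.47%) over all CpGs and 4 of the 228 (1.75%). These shares do not compare like with like, because of the sign condition and of the levels. All CpGs read on both strands had a median level of 0.761%, against 38.5% at the asymmetric ones. The smallest adjusted p was 0.864, among the asymmetric CpGs as well. The difference between genotypes had a median size of 7.68 points at the asymmetric CpGs with a median standard error of 13.9 points, so that a difference of this size was not detectable here. Taken in the direction of each CpG, the mean strand difference over the 228 was 24.9 ± 0.582 points (SD, n = 4) in Wt and 27.6 ± 2.59 points (SD, n = 8) in Tg, with ranges of 24.3 to 25.5 and 23.5 to 31.5 that overlapped. The same animals chose the CpGs and their directions, with more Tg than Wt animals in the mean. Both group means are therefore inflated, against 14.2 to 19.1 points in animals left out, and do not serve as a comparison of genotypes.

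The smallest p-values among the asymmetric CpGs belonged to a CpG near the pseudogene Gm9229, 1 in the promoter of Rassf7, which encodes a Ras association domain protein, and 1 in an intron of Rpl38, a ribosomal protein gene. Near Gm9229 (chr12:18136057) the values were 40.5, 27.9, 41.4 and 46.3 points in Wt and -41.8, 12.2 and 40 points in Tg. Tg was lower by a fitted -34.1 ± 12.96 points (SE; limma, adjusted p = 0.864), with overlapping groups. At Rassf7 (chr7:141215952), a CpG beside a fragment of 148 bases, they were -20, 12.5, -5.47 and -4.33 points in Wt and -40.7, -24.9 and -9.97 points in Tg, a fitted difference of -20.9 ± 7.97 points (limma, adjusted p = 0.864). At Rpl38 (chr11:114669916) they were -25.8, -5.88, -9.30 and -5.75 points in Wt and -60, -29.7 and -10.7 points in Tg, a fitted difference of -22.3 ± 9.70 points (limma, adjusted p = 0.864). None of the 3 passed the test.

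The methylation level itself, with the reads of both strands summed, was tested with a quasi-binomial logistic regression. It called 0 of 325167 CpGs (0%) and 0 of the 228, with a smallest adjusted p of 0.337 over all CpGs. At an unadjusted p under 0.05 there were 39139 (12%) over all and 13 of the 228 (5.70%). The size of the difference was taken from reads pooled over both strands and the animals of a genotype. It therefore also moves with the share of reads from each strand and animal. It was at least 10 points at 25 of the 228, and at 1064 of the 14334 partly methylated CpGs, without passing the test. In the untranslated exon of Tmem267 (chr13:119609702), the pooled level was 21.1 points higher in Tg (quasi-binomial p = 0.0411, adjusted p = 0.404). The mean plus-strand level over animals there was 15.2% in Wt and 30.2% in Tg. The minus strand was at 91.8% and 91.2%, so that neither strand differed by 21.1 points. Without the allowance for spread between animals, a binomial model called 1034 CpGs (0.318%) and 23 of the 228, of which 15 were higher in Tg, and 94 of the 228 had an unadjusted p under 0.05, against 30.3% over all CpGs.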

How the data were processed

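Per the labels, RRBS libraries from 12 mouse brains were processed with Bismark against mm10 and read with methylKit. The authors kept the strands apart, with 1 file per animal. The deposited values are counts per cytosine of coverage, methylated reads and converted reads, listed at 10 reads or more. The trimming of filled-in fragment ends is not given in the sources used here. Counts of the 19 autosomes were paired by strand, with 11 repeated positions left out. Levels were methylated over total counts per strand and animal, so that each animal weighs the same in the strand differences. There, depths bear on counting error only, since reads are not independent molecules. Genotype differences in the level came from reads summed over animals and strands, so that deeper libraries and strands weigh more.

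Strand differences were fitted with limma 3.58.1 (R 4.3.3, variance trend, genotype and sex), which leaves out CpGs with no spread, and levels with a quasi-binomial regression (dispersion of at least 1, F test), in Python 3.11.15, with Benjamini-Hochberg adjustment over all CpGs. Calls needed an adjusted p under 0.1 and 10 points. On simulated data of 5000 CpGs with 200 shifted, limma recovered 149 and called 5 others, and the quasi-binomial fit recovered 200 and called 0. The simulated shift was larger than the 10 points needed for a call, and the counts had no spread between animals beyond counting error. At the 228, the variance over animals of the strand difference was a median of 2.69 times the binomial one, and the median dispersion of the level was 4.54. The recovery thus does not tell what the tests could find in the measured data. Annotation was GENCODE vM21 basic. CpGs named in the text were the largest differences by direction, CCGG, promoter, exon and run, the smallest genotype p-values, those in the gene lists and those at the threshold, 1 in any 1000 bp and none on chromosome 18. Repeated examples and CpGs of the 148 or 149 base class were added after their values were seen. The members, lists and tests were chosen with earlier results of these data known. Alternatives varied the read minimum, points, sign rule, weighting, site set, promoter, covariates, model and animals.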

Additional observations from a re-analysis of the deposited data

Results flagged for a closer look

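Among 66 sets of 4 Wt or 8 Tg values examined, 4 had an animal far from the others of its group, where chance gives about 1 in 20. At Cyld (chr8:88697309), Wt female 2 had a strand difference of 81.2 points, against 45.5 to 50 in the other Wt animals. At CT010467.1 (chr17:39847627), Tg male 1 had 91.2 points, against 48.6 to 66.5 in the other Tg animals. Near Gm49313 (chr15:38259627), just inside the limit of 15 points, Tg male 1 had 66.7 points, against 1.54 to 29.5. At Polr1d (chr5:147078755), just outside it, Tg female 4 had -60 points, against -17.1 to 10.6. Tg female 4 and Tg male 1 were the libraries with the lowest coverage summed over the listed cytosines (33619981 and 44894320), and the part of depth in these values was not tested.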

How the results depend on the processing

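The number of asymmetric CpGs was 36 with 20 reads or more, 481 at 10 points, 113 at 20 points and 84 with all 12 animals of 1 sign. It was 260 to 291 with each animal left out, and 199 from read-weighted levels, of which 181 were among the 228. It was 156 without CCGG CpGs, 198 without repeated windows and, as alternatives chosen after seeing the data, 205 without the 148 or 149 base class and 200 without deep CpGs. The share inside a CCGG was 23.7% at 10 points, 46.9% at 20 points, 25.5% without deep CpGs and 25.6% to 29.6% with each animal left out, each above the 8.30% of all CpGs. The share in promoters was 61.1% with 20 reads, 51.3% at 20 points and 33.1% to 36.4% with each animal left out. The plus-higher share stayed within 48.0% to 58.3%. For the strand difference, a log2 odds ratio with a pseudocount of 1 read called 2 CpGs and 0 of the 228, with 0 calls under each other alternative run. For the level, only the binomial model called any (1034). Over 403 alternatives of the 31 named CpGs, 0 reversed. No paired analysis was possible because replicate numbers follow only the order of the records. Limits: 192 of the 228 CpGs had under 20 reads on a strand in at least 1 animal. The choice by measured size inflates the means, as the animals left out show. Sex rests on labels that 1 library goes against.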
